A study of Mus musculus with 6 samples.

Results

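The mitochondrial carriers of the SLC25 family were described here in liver RNA of fasted mice that lack CREBH (CREBH-KO), against wild-type (WT) mice. Members were the protein-coding genes of GENCODE M21 with a symbol of the form Slc25a and a number, together with Ucp1, Ucp2, Ucp3, Mtch1 and Mtch2. This gave 52 genes among the 55536 gene identifiers of the count files. CREBH is a liver transcription factor encoded by Creb3l3. Both groups consisted of liver tissue taken after a 14 h fast, and each held 3 libraries. The labels give neither the strain, the age nor the exons that the CREBH-KO allele lacks, and they do not say whether the allele is missing in the whole animal. The labels describe independent samples run on 1 sequencing lane but name no animal for any of them, so p-values measure the spread between these samples. For CREBH-KO 2 and CREBH-KO 3 the labels report a lost file of first reads, and how their counts were made is not given in the sources used here.

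SLC25 proteins sit in the inner membrane of mitochondria and exchange metabolites between the matrix and the cytosol. They carry nucleotides, carboxylates, amino acids, acylcarnitines, cofactors and metal ions that cannot cross the membrane alone. In the fasted liver they link fatty acid oxidation, glucose production from amino acids and the urea cycle, whose steps are divided between the matrix and the cytosol. A few members lie elsewhere, in the outer membrane (Slc25a46, Mtch1, Mtch2) or in peroxisomes (Slc25a17).

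Libraries held 28106243 to 34146918 counts in genes in CREBH-KO and 31679996 to 39288819 in WT. Creb3l3 had 57.4, 45.03 and 46.4 CPM in CREBH-KO 1, 2 and 3, against 467, 496 and 495 CPM in WT 1, 2 and 3. All CREBH-KO libraries lay far below all WT libraries (log2 fold change -3.29 with an SE of 0.11, adjusted p = 3.00e-06 in edgeR). Tests are quasi-likelihood tests in edgeR with p-values adjusted by Benjamini and Hochberg's method. CPM is the usual library-scaled read count, here divided by effective library sizes. Log2 fold changes are CREBH-KO over WT, and a gene was called changed at an adjusted p under 0.05 over all 15589 tested genes. Albumin reached 52560 to 57680 CPM in CREBH-KO and 43460 to 56610 CPM in WT. The adipocyte markers Adipoq, Plin1, Cidea and Lep summed to 0.0293 to 0.135 CPM in CREBH-KO and 0.0313 to 0.130 CPM in WT, with Lep at 0 in every library. The muscle markers Acta1, Ckm, Myh4 and Tnnt3 summed to 0.0338 to 0.122 CPM in CREBH-KO and 0 to 0.155 CPM in WT, with Ckm and Myh4 at 0.

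Of the 52 carriers, 45 passed the filter on low counts. Among these, 10 fell in CREBH-KO, none rose and 35 did not pass the test in edgeR. The 10 that fell are Slc25a45, Slc25a10, Slc25a48, Slc25a13, Slc25a47, Slc25a23, Slc25a21, Slc25a16, Slc25a46 and Slc25a5. They make up 22.2% of the tested carriers, where 6.46% of all tested genes fell, 3.91% rose and 10.4% changed in either direction. At an unadjusted p under 0.05, 2 carriers were higher and 14 lower, beside 3926 of all 15589 tested genes in either direction. DESeq2 called 1 carrier higher and 12 lower, beside 814 higher and 1295 lower over all tested genes. With limma-voom none was higher and 10 were lower, beside 600 higher and 1010 lower over all tested genes. CREBH-KO and WT libraries were fully apart for 18 of the 45 carriers (14 lower, 4 higher in CREBH-KO), or 40.0%, against 30.6% of all tested genes. The 14 include Slc25a1, although its CREBH-KO 2 and WT 1 libraries both stood at 204.9 CPM. The median log2 fold change of the tested carriers was -0.098, beside 0.025 over all tested genes. In bulk liver RNA, fewer cells of a type and less RNA per cell cannot be told apart.

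**Figure D1:**
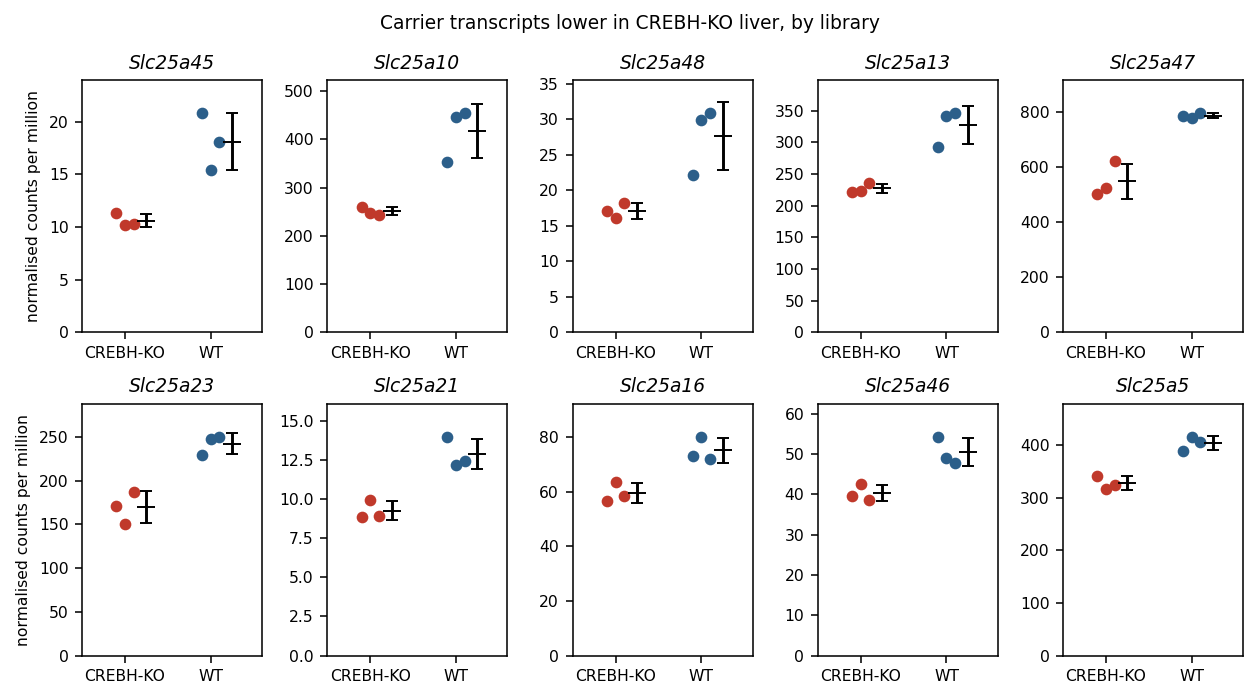
Normalised CPM (y axis, from 0) of the 10 carriers that fell, by genotype. Points are single libraries, CREBH-KO left and WT right, and bars beside them give the mean ± SD (n = 3 each). In all 10 panels every CREBH-KO point lies below every WT point.

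The 10 falls were modest, from 1.23-fold to 1.71-fold, and were not equally firm. Those of Slc25a10, Slc25a13 and Slc25a45 passed with any 1 of the 6 libraries left out (adjusted p of at most 0.0427). Leaving out WT 2 ended the calls of Slc25a47 (adjusted p = 0.0506) and Slc25a23 (0.0534). For Slc25a48, leaving out CREBH-KO 2 (0.0546) or WT 2 (0.0584) did so. Slc25a16 and Slc25a5 passed without WT 1 but not without any other library, and the calls of Slc25a21 and Slc25a46 ended whichever library was left out (adjusted p of 0.0583 to 0.138). Called carriers were 3 of 46 tested without WT 2, 5 of 45 without CREBH-KO 2, 6 of 45 without CREBH-KO 1 and 6 of 46 without WT 3. Calls over all genes fell too, to 658 of 16189 tested without WT 2 and 838 of 16067 without CREBH-KO 2. They were 1358 of 16034 without CREBH-KO 1 and 1098 of 16163 without WT 3, beside 1616 of 15589 with all 6 libraries. With CREBH-KO 1 alone against WT, the median log2 fold change of the tested carriers was -0.144, beside -0.0105 over all tested genes. All 10 stayed below 0 under every alternative that was run. The split of calls depended on the scaling: with library size alone, 1 carrier was higher and 6 lower, and over all genes 813 were higher and 726 lower, beside 609 higher and 1007 lower with TMM factors.

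**Figure D2:**
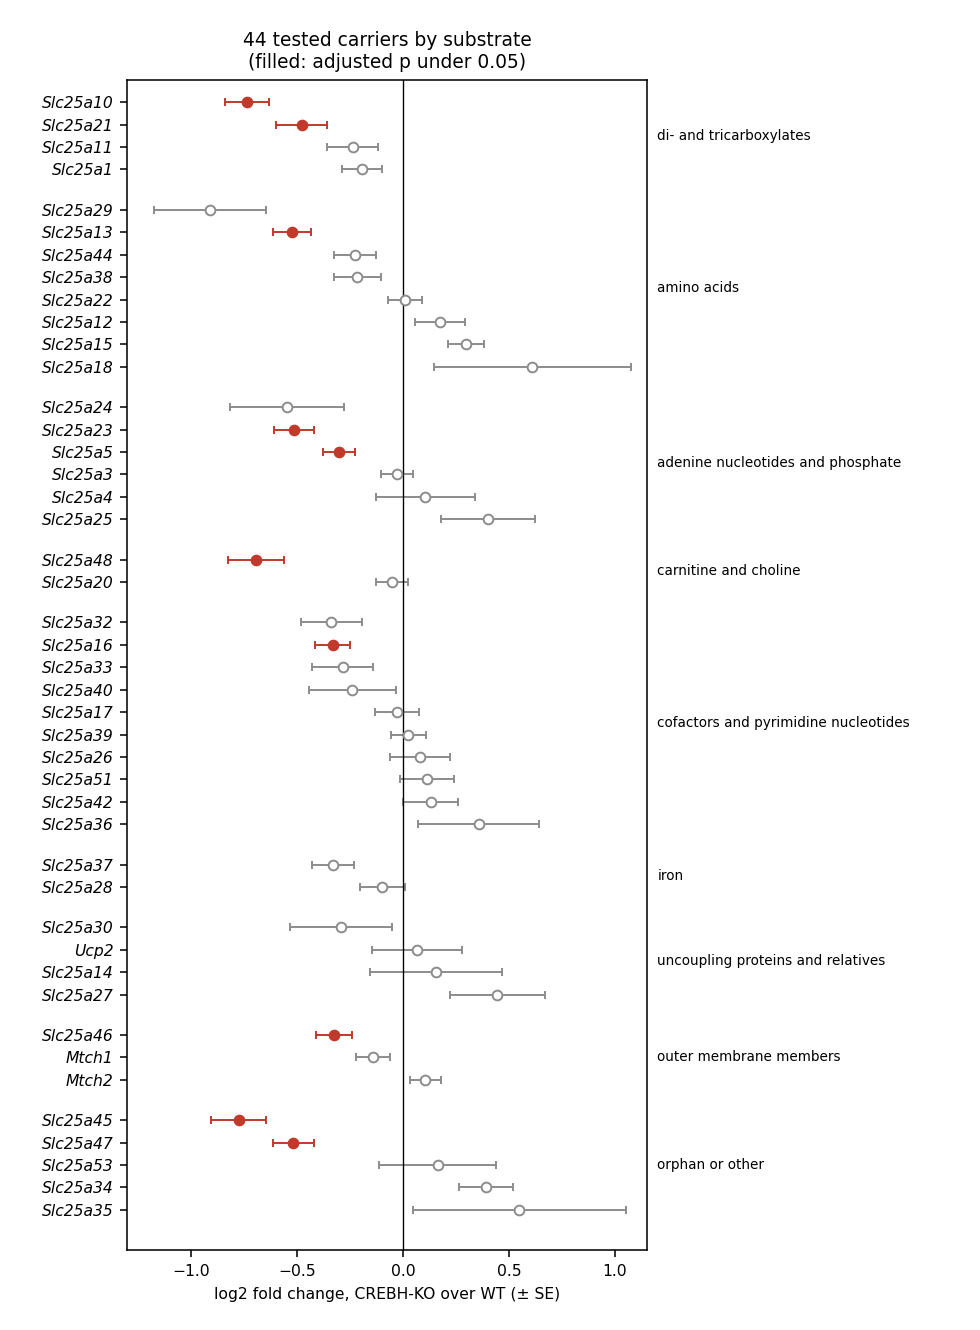
Log2 fold change (x axis, CREBH-KO over WT, ± SE, n = 3 each) of 44 of the 45 tested carriers, grouped by substrate down the page. Filled points passed at an adjusted p under 0.05: all 10 lie left of 0, between -0.77 and -0.30.

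The sequences before the starts of 4 carriers that fell are shown because they held a motif searched for. RefSeq (GRCm38.p6) gave a start for 41 of the 52 carriers, 36 of them tested and 9 of them lower. The 250 bases before each start were searched on both strands for TGACG, the core of the cAMP response element bound by CREB-type factors, and for AGGTCA, the half-site of many nuclear receptors. Capitals mark TGACG or AGGTCA, or the reverse complement of either, and the sequences run 5′ to 3′ on the strand of the gene:

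Slc25a47, chr12:108850879-108851128, plus strand: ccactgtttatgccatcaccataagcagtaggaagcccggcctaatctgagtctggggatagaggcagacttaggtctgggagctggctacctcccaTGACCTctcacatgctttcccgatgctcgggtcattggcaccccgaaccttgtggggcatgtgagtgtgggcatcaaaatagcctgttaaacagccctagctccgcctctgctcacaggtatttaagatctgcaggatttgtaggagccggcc

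Slc25a45, chr19:5877572-5877821, plus strand: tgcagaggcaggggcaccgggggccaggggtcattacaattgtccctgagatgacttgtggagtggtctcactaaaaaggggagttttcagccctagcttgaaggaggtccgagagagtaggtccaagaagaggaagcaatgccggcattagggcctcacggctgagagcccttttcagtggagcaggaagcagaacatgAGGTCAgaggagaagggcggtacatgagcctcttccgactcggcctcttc

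Slc25a13, chr6:6217174-6217423, minus strand: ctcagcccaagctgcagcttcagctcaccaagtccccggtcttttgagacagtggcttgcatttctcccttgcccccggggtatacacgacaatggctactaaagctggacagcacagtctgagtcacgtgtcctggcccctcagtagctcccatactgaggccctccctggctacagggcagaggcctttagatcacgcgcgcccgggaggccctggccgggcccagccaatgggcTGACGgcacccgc

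Slc25a16, chr10:62920383-62920632, plus strand: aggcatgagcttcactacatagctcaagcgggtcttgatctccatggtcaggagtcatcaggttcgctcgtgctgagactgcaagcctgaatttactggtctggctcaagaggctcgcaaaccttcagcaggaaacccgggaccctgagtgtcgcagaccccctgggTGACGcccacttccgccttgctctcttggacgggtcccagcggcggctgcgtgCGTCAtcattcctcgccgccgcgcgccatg

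TGACG occurred before Slc25a13 and Slc25a16, 2 of 9 carriers that fell, and before 13 of the 36 tested carriers. It occurred in 5836 of 32851 windows of this length in the whole table (17.8%), where a gene can have several. AGGTCA occurred before Slc25a45 and Slc25a47, 2 of 9, and before 5 of the 36, beside 14.0% of all windows. The full element TGACGTCA was in 2 of the 36 and in none of the 9 (1.55% of all windows). A direct repeat of AGGTCA with 1 base between its copies was in none of the 36 (0.0335% of all windows). Such matches describe letters in these windows and not binding.

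The di- and tricarboxylate carriers were all below 0 in CREBH-KO: 2 of 4 fell and the other two did not pass. Slc25a10, the dicarboxylate carrier that exchanges malate or succinate for phosphate, had 261, 248 and 244 CPM in CREBH-KO 1, 2 and 3, against 354, 446 and 454 CPM in WT 1, 2 and 3. The CREBH-KO libraries were close together and the lowest WT library, WT 1, was well above them. Its log2 fold change was -0.74 ± 0.11 (SE, edgeR adjusted p = 0.00333), a mean 40.0% lower. Slc25a21, which carries the oxoadipate of lysine and tryptophan breakdown, was scarce, with 8.87, 9.94 and 8.94 CPM in CREBH-KO 1, 2 and 3 against 14.0, 12.2 and 12.4 CPM in WT 1, 2 and 3. The groups did not overlap (-0.48 ± 0.12, edgeR adjusted p = 0.0356), and the call was lost with library size alone (adjusted p = 0.0798). The citrate carrier Slc25a1, which exports citrate for fatty acid synthesis, had 163, 205 and 184 CPM in CREBH-KO and 205, 219 and 207 CPM in WT. Its highest CREBH-KO library was level with its lowest WT library, and it did not pass (-0.19 ± 0.094, edgeR adjusted p = 0.244). Slc25a11, the oxoglutarate carrier of the malate-aspartate shuttle, did not pass either (-0.24 ± 0.12, edgeR adjusted p = 0.267). It passed without WT 1 (-0.37, adjusted p = 0.0386), and its annotation shares 8.92% of exonic bases with Rnf167 on the other strand.

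Among amino acid carriers, 1 of 8 tested fell and 7 did not pass, with fold changes on both sides of 0. Slc25a13, or citrin, is the liver's aspartate-glutamate carrier and supplies cytosolic aspartate to the urea cycle. It had 222, 224 and 236 CPM in CREBH-KO 1, 2 and 3, against 292, 342 and 346 CPM in WT 1, 2 and 3. No library of one genotype reached the range of the other (-0.52 ± 0.088, edgeR adjusted p = 0.00703). Its paralogue Slc25a12, or aralar, the form of muscle and brain, stood at 19.6 to 25.5 CPM in CREBH-KO and 18.1 to 21.1 CPM in WT and did not pass (0.17 ± 0.12, edgeR adjusted p = 0.402).

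Slc25a15, the ornithine-citrulline carrier of the urea cycle, pointed the other way. It was the most abundant amino acid carrier per length of merged exons in CREBH-KO, while Slc25a13 was so in WT. Slc25a15 had 529.8, 589 and 513 CPM in CREBH-KO 1, 2 and 3, against 455, 454 and 418 CPM in WT 1, 2 and 3. All CREBH-KO libraries were above all WT libraries, but it did not pass (0.30 ± 0.086, edgeR adjusted p = 0.0600). It passed in DESeq2 (adjusted p = 0.0231), with the stricter filter (0.0485), with library size alone (0.0355) and with upper-quartile factors (0.0411). The second ornithine carrier Slc25a2 had 4 to 12 raw counts per CREBH-KO library and 1 to 10 per WT library and was not tested.

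The glutamate carrier Slc25a22 had 404 to 429 CPM in CREBH-KO and 402 to 444 CPM in WT, with overlapping groups and a log2 fold change of 0.0099 ± 0.079. Its paralogue Slc25a18 stayed at 0.468 to 1.10 CPM in CREBH-KO and 0.313 to 0.553 CPM in WT. Slc25a29, a carrier of basic amino acids, had 2.23, 2.16 and 3.09 CPM in CREBH-KO 1, 2 and 3, against 6.03, 3.32 and 4.71 CPM in WT 1, 2 and 3. The gap between the groups was narrow, and although its fold change was the lowest of the family (-0.91 ± 0.26) it did not pass (edgeR adjusted p = 0.0603). It passed in DESeq2 (adjusted p = 0.0134) and when genes of all counts were kept (0.0055). The branched-chain amino acid carrier Slc25a44 (-0.23 ± 0.098) and Slc25a38 (-0.22 ± 0.11), which brings glycine to heme synthesis, did not pass.

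Of the carriers of adenine nucleotides and phosphate, 2 of 6 tested fell. Slc25a5, the adenine nucleotide translocase that exports ATP in the liver, had 342, 316 and 324 CPM in CREBH-KO 1, 2 and 3, against 388, 416 and 406 CPM in WT 1, 2 and 3. The fall was the smallest of the 10 (-0.30 ± 0.076, edgeR adjusted p = 0.0367), with groups that did not overlap. The call was lost with library size alone (adjusted p = 0.0869) and with upper-quartile factors (0.0584). Of the 1644 different stretches of 50 bases in Slc25a5 transcripts, 33.8% also occur in transcripts of 9 other annotated genes, Slc25a5-ps among them. Reads that align to several places were set aside in these counts, so its level is uncertain.

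Slc25a23, a calcium-regulated carrier that exchanges ATP-magnesium for phosphate, had 171, 151 and 187 CPM in CREBH-KO 1, 2 and 3, against 229, 248 and 251 CPM in WT 1, 2 and 3. Each CREBH-KO library was below each WT library (-0.51 ± 0.095, edgeR adjusted p = 0.0109). Slc25a25 is a carrier of the same kind and showed the widest spread in CREBH-KO, relative to its mean, among the 15 most abundant carriers. It had 251, 271 and 143 CPM in CREBH-KO 1, 2 and 3, against 189.9, 135 and 179 CPM in WT 1, 2 and 3. CREBH-KO 3 lay among the WT libraries and the other two above them, and it did not pass (0.40 ± 0.22, edgeR adjusted p = 0.298). It passed without CREBH-KO 3 (0.64, edgeR adjusted p = 0.0479) and when genes of all counts were kept (0.38, adjusted p = 0.0401). The phosphate carrier Slc25a3, which feeds ATP synthase, had 352 to 364 CPM in CREBH-KO and 341 to 376 CPM in WT (-0.029 ± 0.077, edgeR adjusted p = 0.856). The heart and muscle translocase Slc25a4 (3.55 to 5.09 CPM in CREBH-KO, 3.03 to 4.91 CPM in WT) and Slc25a24 (1.35 to 1.76 CPM in CREBH-KO, 1.73 to 2.83 CPM in WT) were scarce and did not pass.

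Slc25a20 carries acylcarnitines into the matrix for beta-oxidation. Its groups overlapped: it had 205, 223 and 215 CPM in CREBH-KO 1, 2 and 3, against 217, 233 and 217 CPM in WT 1, 2 and 3 (-0.050 ± 0.076, edgeR adjusted p = 0.729). Slc25a48, reported to bring choline into mitochondria, had 17.0, 16.0 and 18.2 CPM in CREBH-KO 1, 2 and 3, against 22.2, 29.9 and 30.9 CPM in WT 1, 2 and 3. It was lower in every CREBH-KO library (-0.69 ± 0.13, edgeR adjusted p = 0.0127), with WT 1 nearest to them.

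Cofactor and pyrimidine nucleotide carriers formed the largest group, and 1 of 11 fell. Slc25a16, thought to supply coenzyme A to the matrix, had 56.7, 63.7 and 58.6 CPM in CREBH-KO 1, 2 and 3, against 73.1, 80.2 and 71.9 CPM in WT 1, 2 and 3. The groups were apart (-0.33 ± 0.083, edgeR adjusted p = 0.0357), and the call was lost with library size alone (adjusted p = 0.108). Slc25a42, another coenzyme A carrier, had 132 to 172 CPM in CREBH-KO and 131 to 168 CPM in WT and did not pass (0.13 ± 0.13). Slc25a39, needed for glutathione import, was the most abundant of the group, with 575, 624 and 562 CPM in CREBH-KO 1, 2 and 3, against 553, 579 and 598 CPM in WT 1, 2 and 3. These ranges overlapped (0.026 ± 0.081, edgeR adjusted p = 0.878), and its paralogue Slc25a40 was at 2.45 to 3.38 CPM in CREBH-KO and 3.19 to 3.78 CPM in WT. The NAD carrier Slc25a51 had 125 to 165 CPM in CREBH-KO and 115 to 152 CPM in WT (0.11 ± 0.13). The peroxisomal Slc25a17 was at -0.030 and the S-adenosylmethionine carrier Slc25a26 at 0.079 on the log2 scale, and neither passed. Slc25a32, linked to folate and FAD transport, and the pyrimidine nucleotide carriers Slc25a33 and Slc25a36 were at -0.34, -0.28 and 0.36 and did not pass. Slc25a32 passed when genes of all counts were kept (-0.36, edgeR adjusted p = 0.0350).

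Neither mitoferrin, the carriers that bring iron to heme and iron-sulphur cluster synthesis, was called. Slc25a37 had 27.1, 30.9 and 32.0 CPM in CREBH-KO 1, 2 and 3, against 41.5, 36.2 and 35.3 CPM in WT 1, 2 and 3. The groups did not overlap, but it did not pass (-0.33 ± 0.10, edgeR adjusted p = 0.0685). It passed in DESeq2 (adjusted p = 0.0450) and when genes of all counts were kept (0.0299). Slc25a37 is also a gene of red cell precursors. The 5 erythroid markers, of which none was called by edgeR or DESeq2 or had an unadjusted p under 0.05, summed to 154 to 199.9 CPM in CREBH-KO and 162 to 261 CPM in WT, and their part in this value was not tested. Slc25a28, the other mitoferrin and the more abundant per length, had 30.8, 31.4 and 26.7 CPM in CREBH-KO 1, 2 and 3, against 32.0, 28.1 and 34.98 CPM in WT 1, 2 and 3, with overlap.

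None of the 4 tested uncoupling proteins and their relatives passed in edgeR, DESeq2 or limma-voom, and none had an unadjusted p under 0.05 in edgeR. Ucp1, which uncouples respiration in brown fat, had 0 counts in all 6 libraries, which allows up to 0.0151 CPM at 3 counts over 198237177 counts. Ucp3, a gene of muscle, had 3 counts over the CREBH-KO libraries and 0 over the WT libraries. Ucp2, which is common in macrophages, had 20.1, 27.5 and 18.9 CPM in CREBH-KO 1, 2 and 3, against 15.2, 20.8 and 27.5 CPM in WT 1, 2 and 3. Its groups overlapped throughout (0.065 ± 0.21, edgeR adjusted p = 0.884). The 8 macrophage and Kupffer cell markers, none of them called by edgeR (1 lower at an unadjusted p under 0.05, and 1 by DESeq2), summed to 71.1 to 88.8 CPM in CREBH-KO and 63.9 to 141 CPM in WT. WT 3 was highest for these markers and for Ucp2 among the WT libraries, and the part of these cells in Ucp2 was not tested. Slc25a30 had 16.6, 29.0 and 16.2 CPM in CREBH-KO 1, 2 and 3, against 31.6, 24.1 and 19.9 CPM in WT 1, 2 and 3, and was the most abundant of this group per length. Its groups overlapped (-0.29 ± 0.24, edgeR adjusted p = 0.489). Slc25a14 and Slc25a27 stayed below 3 CPM in every library.

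Among the outer membrane members, Slc25a46, which takes part in mitochondrial fusion and lipid exchange, fell. It had 39.6, 42.5 and 38.7 CPM in CREBH-KO 1, 2 and 3, against 54.4, 49.0 and 47.8 CPM in WT 1, 2 and 3 (-0.33 ± 0.084, edgeR adjusted p = 0.0404). The groups did not overlap, but the adjusted p was close to the threshold and rose to 0.126 with library size alone and 0.0629 with upper-quartile factors. Mtch2, an insertase for outer membrane proteins, had 169, 169 and 161 CPM in CREBH-KO 1, 2 and 3, against 159.9, 157 and 147 CPM in WT 1, 2 and 3. All CREBH-KO libraries were slightly above the WT libraries, and it did not pass (0.11 ± 0.074, edgeR adjusted p = 0.414). Its paralogue Mtch1 was at -0.14 ± 0.079.

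The orphan carriers, for which no single substrate is settled, held the most abundant transcript of the family in WT, which was the third in CREBH-KO, and 2 of the 5 tested fell. Slc25a47, a carrier found mainly in liver, had 501, 523 and 620.3 CPM in CREBH-KO 1, 2 and 3, against 783, 778 and 795 CPM in WT 1, 2 and 3. The WT libraries were within a narrow range and all CREBH-KO libraries lay below it, CREBH-KO 3 least so (-0.52 ± 0.097, edgeR adjusted p = 0.0113). Slc25a45 had the largest fall among the called carriers, with 11.3, 10.2 and 10.3 CPM in CREBH-KO 1, 2 and 3, against 20.8, 15.4 and 18.1 CPM in WT 1, 2 and 3. Its CREBH-KO libraries were nearly level and below each WT library (-0.77 ± 0.13, edgeR adjusted p = 0.00703). Slc25a34 was higher in each CREBH-KO library, with 22.6, 20.8 and 25.8 CPM against 19.7, 14.9 and 18.1 CPM in WT, and did not pass (0.39 ± 0.13, edgeR adjusted p = 0.0904). Slc25a35 and Slc25a53 were below 2 CPM in every library, and Rangrf overlaps 31.3% of the exonic bases of Slc25a35 on the other strand.

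Of the 7 carriers under the filter, Slc25a54 had no count in any library, as Ucp1 did. The testis translocase Slc25a31 had 6 counts over CREBH-KO and 6 over WT, and Slc25a41 had 0 over CREBH-KO and 1 over WT. Slc25a43 had 8, 1 and 5 counts in CREBH-KO 1, 2 and 3, against 0, 1 and 0 in WT 1, 2 and 3. Scaled to the depth of each group, the ratio of its sums was 15.5, with a 95% exact interval of 2.35 to 654 that covers counting error only. When genes of all counts were kept, Slc25a43 did not pass (3.38 ± 1.46, edgeR adjusted p = 0.178).

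Levels between genes were compared as CPM per kilobase of merged exons. In CREBH-KO the order at the top was Slc25a39 (213 ± 12.01, SD, n = 3), Slc25a5 (199 ± 7.96) and Slc25a47 (184 ± 21.3). In WT it was Slc25a47 (263 ± 2.93), Slc25a5 (245 ± 8.56) and Slc25a39 (209 ± 8.14). In CREBH-KO these neighbours differed by about their spread, while in WT the steps exceeded it. The next levels in CREBH-KO were Slc25a15 (96.6 ± 7.07), Slc25a1 (85.0 ± 9.60) and Slc25a10 (72.6 ± 2.53). In WT they were Slc25a10 (121 ± 16.2), Slc25a1 (97.1 ± 3.39) and Slc25a13 (86.1 ± 7.88), ahead of Slc25a15 (78.6 ± 3.79). Among the 15 most abundant tested carriers 5 fell, among the next 15 there were 4, and among the 15 least abundant there was 1. Scarce carriers were measured less precisely, with an SE of 0.50 for Slc25a35 against 0.076 for Slc25a5. The share of all tested genes that fell at these levels was not computed, so no dependence on level is read from these counts. Merged exons count the bases of every annotated transcript. With the length of the transcript with the longest coding sequence Slc25a47 stayed at rank 1, Slc25a39 came to rank 2 and Slc25a3 moved to rank 4 instead of 9.

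**Figure D3:**
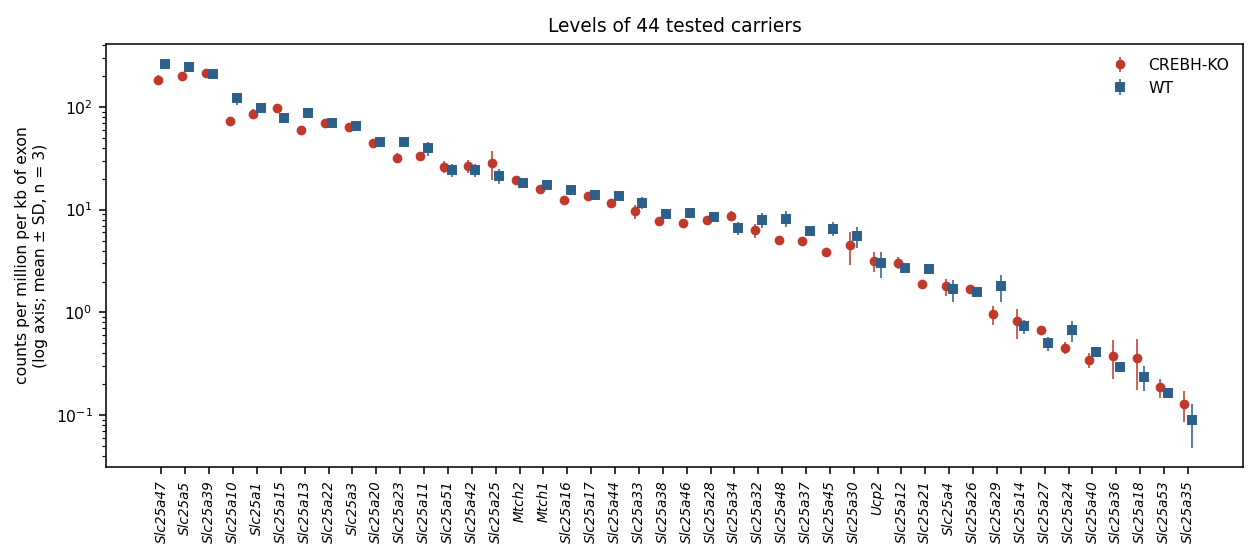
Level per length of 44 of the 45 tested carriers, as CPM per kilobase of merged exons on a log axis, in order of the mean over all libraries. Circles are CREBH-KO and squares WT, with SD (n = 3 each). Levels run over more than 3 orders of magnitude, and Slc25a47 lies highest in WT at 263.

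Summed over all 52 carriers, the level per length was 1358, 1417 and 1401 in CREBH-KO 1, 2 and 3, against 1561, 1634 and 1646 in WT 1, 2 and 3. Each CREBH-KO library was below each WT library, and the mean was 86.3% of that of WT, given as a description without a test. Slc25a47 accounted for 35.9% of the net difference over all 52 carriers, Slc25a10 for 21.9%, Slc25a5 for 20.9% and Slc25a13 for 11.9%. These shares depend on the merged-exon lengths, and the level of Slc25a5 is uncertain. In CPM without length, Slc25a13 differed more (means of 227 in CREBH-KO and 327 in WT) than Slc25a5 (327 and 403.5). By substrate, the sum of the orphan carriers was 197 ± 21.9 in CREBH-KO and 277 ± 4.02 in WT (SD, n = 3 each). Slc25a47 alone made up 184 ± 21.3 of this in CREBH-KO and 263 ± 2.93 in WT. Of the 5 tested orphan carriers, 3 had a log2 fold change above 0. The di- and tricarboxylate carriers summed to 193 ± 8.97 in CREBH-KO and 260.1 ± 24.1 in WT. Within that sum Slc25a10 held 72.6 ± 2.53 in CREBH-KO and 121 ± 16.2 in WT. The sum for adenine nucleotides and phosphate was 326 ± 10.8 in CREBH-KO and 380.2 ± 11.8 in WT. Cofactor carriers summed to 312 ± 15.6 in CREBH-KO and 311 ± 8.24 in WT, and amino acid carriers to 251 ± 8.10 in CREBH-KO and 262 ± 3.56 in WT, with libraries of the 2 groups overlapping in both sums. With scaling by library size alone the summed carrier level of CREBH-KO was 90.9% of that of WT.

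**Figure D4:**
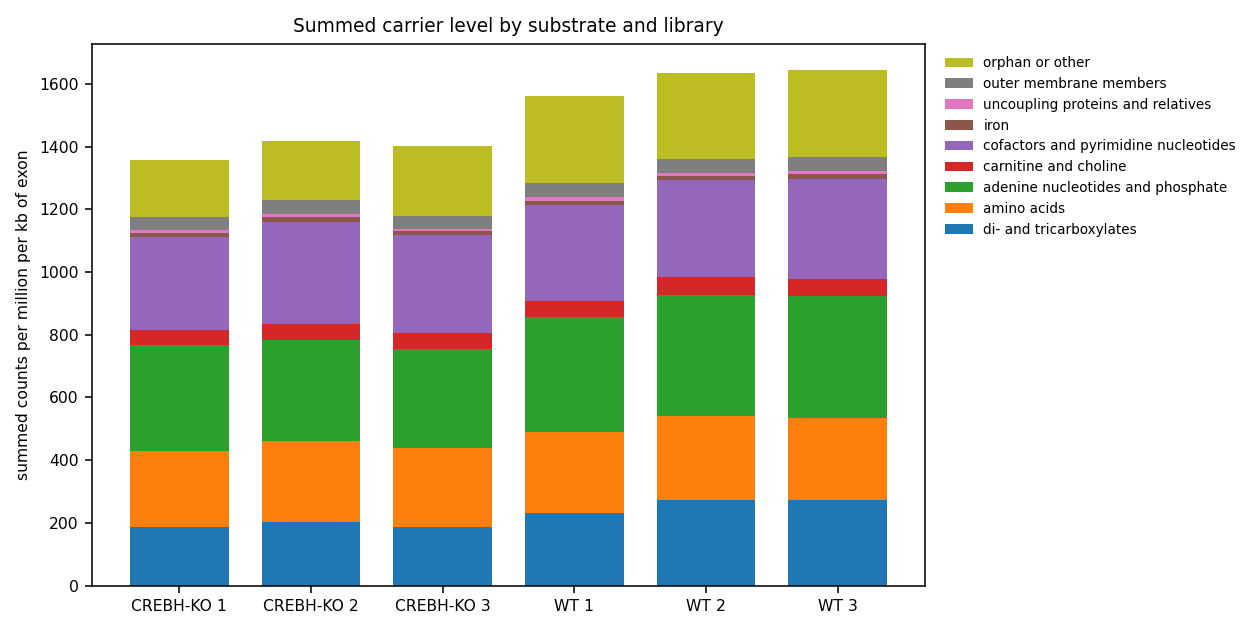
Stacked bars of the summed level per length (CPM per kilobase of merged exons, from 0) of the 52 carriers by substrate, in the CREBH-KO libraries on the left and the WT libraries on the right. The CREBH-KO bars end at 1358 to 1417 and the WT bars at 1561 to 1646.

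The family holds 5 pairs of neighbouring genes less than 50 kb apart. Slc25a29 and Slc25a47 on chromosome 12 (GRCm38) are divergent, with 162 bases between the annotated genes, and were at -0.91 and -0.52 on the log2 scale. Of these, Slc25a47 alone passed. The RefSeq start of Slc25a47 used above lies further inside the annotated gene. Slc25a41 and Slc25a23 on chromosome 17 run in the same direction 2056 bases apart, and Slc25a43 and Slc25a5 on the X chromosome 18448 bases apart. In both of these pairs the second gene fell and the first was too low to test. Ucp3 and Ucp2 on chromosome 7 and Slc25a54 and Slc25a24 on chromosome 3 held no called gene.

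Other genes around the carriers were counted in the same fit, where 6.46% of all tested genes fell and 3.91% rose. Of 15 tested genes that import carriers into the inner membrane (the TIM22 and TOM complexes), none changed (median log2 fold change 0.011), with 1 lower and none higher at an unadjusted p under 0.05, and none by DESeq2 or limma-voom. The 15 tested ATP synthase subunits had no call either (median -0.090), with 1 higher and 1 lower at an unadjusted p under 0.05 and none by DESeq2 or limma-voom. Of 17 other membrane channels and carriers of mitochondria, 5 fell and 1 rose. Those that fell include the pyruvate carrier subunit Mpc1 (-0.71), the cation exchanger Letm1 (-0.49), the calcium uniporter subunit Micu2 (-0.46) and Sfxn5 (-0.37). The other pyruvate carrier subunit, Mpc2, was at 0.22 and did not pass (edgeR adjusted p = 0.139). Its CREBH-KO libraries (199.7 to 224.6 CPM) were above its WT libraries (175.2 to 196.5 CPM). At an unadjusted p under 0.05, 3 of the 17 were higher and 6 lower, and DESeq2 called 1 higher and 5 lower. Of 9 enzymes of the malate-aspartate, citrate and glycerol-3-phosphate shuttles, 3 fell: Got2 (-0.38) of the malate-aspartate shuttle, citrate synthase Cs (-0.34), and Gpd2 (-0.61), the mitochondrial enzyme of the glycerol-3-phosphate shuttle. None rose (none was higher by DESeq2 or at an unadjusted p under 0.05). Of the 6 urea cycle enzymes, Arg1 rose (0.46) and none fell (2 were lower at an unadjusted p under 0.05, and 1 by DESeq2). Of 5 genes of the carnitine shuttle, Cpt1a fell (-1.07) and Crot rose (0.67), and DESeq2 called 1 lower and 2 higher. Of 8 regulators, Ppara fell (-1.28) and the rest did not pass in edgeR, with 3 lower at an unadjusted p under 0.05 and 2 lower by DESeq2. With 1 library left out, the calls of Mpc1, Letm1, Cpt1a and Ppara held for each library, while Arg1 was lost for each (adjusted p up to 0.116). Each of the other calls named here was lost for at least 1 library (adjusted p up to 0.146).

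Markers of other cells were counted in the same way, to be read beside the same shares of all tested genes. Of 7 stellate cell and fibroblast markers 1 rose, Dcn (0.56), whichever library was left out (2 rose by DESeq2). Col1a2 (0.70), Col3a1 (0.64), Col1a1 (0.58), Des (0.43), Reln (0.081) and Lrat (-0.084) did not pass in edgeR. The list summed to 196 to 222 CPM in CREBH-KO and 139 to 172 CPM in WT. Dcn alone held 113 to 131 CPM of this in CREBH-KO and 78.9 to 89.96 CPM in WT. Of 5 cholangiocyte markers Sox9 rose (0.96), while Epcam (-1.11, lower at an unadjusted p under 0.05), Krt19 (-0.35), Spp1 (-0.092) and Krt7 (0.035) did not pass. The call of Sox9 held for 2 of the 6 left-out libraries (adjusted p up to 0.113). The list had a median of -0.092, with sums of 41.7 to 69.3 CPM in CREBH-KO and 35.8 to 78.9 CPM in WT. Of 5 tested lymphocyte markers Ptprc rose (1.18), a call lost without CREBH-KO 2 (adjusted p = 0.0604) or WT 2 (0.0666), and the list summed to 7.87 to 10.04 CPM in CREBH-KO and 3.00 to 7.32 CPM in WT. Among 7 hepatocyte markers Apob fell (-0.36) and none rose. The call of Apob was lost whichever library was left out (adjusted p of 0.0512 to 0.136), with library size alone (0.0893) and with upper-quartile factors (0.0607). The sum of these markers was 68290 to 73360 CPM in CREBH-KO and 59080 to 72750 CPM in WT. None of 6 endothelial markers was called by edgeR or DESeq2 (1 higher and 2 lower at an unadjusted p under 0.05 in edgeR), with sums of 122.6 to 127 CPM in CREBH-KO and 109 to 144 CPM in WT. The 4 neutrophil markers summed to 0.556 to 1.68 CPM in CREBH-KO and 0.0626 to 0.698 CPM in WT. The part of these cells in the carrier values was not tested.

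**Figure D5:**
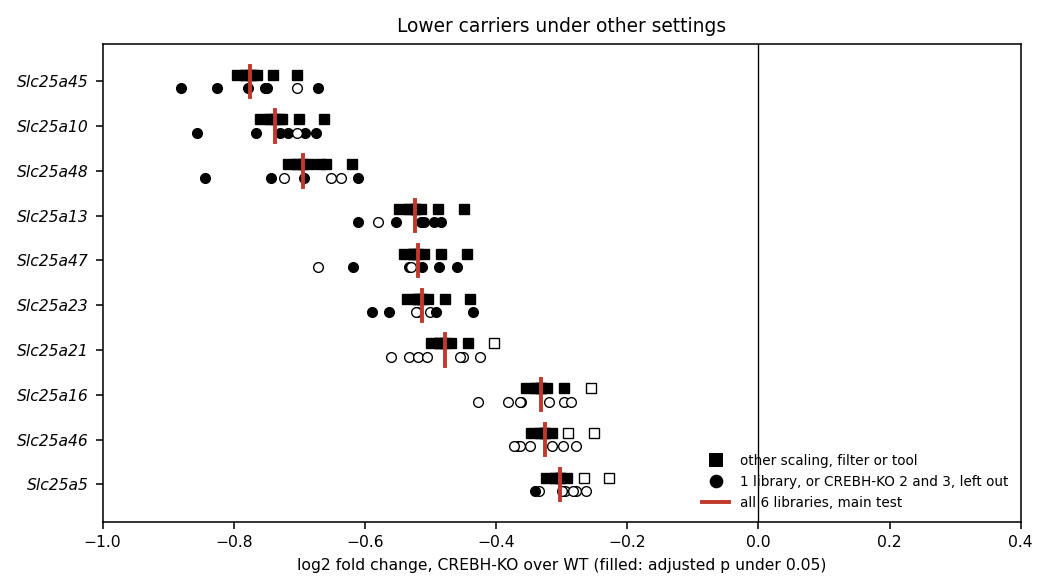
Log2 fold change (x axis, CREBH-KO over WT) of the 10 carriers that fell under each alternative. Squares are other scalings, filters and tools, circles have 1 library (or CREBH-KO 2 and 3) left out, and red lines are the values with all 6 libraries. Filled symbols passed at an adjusted p under 0.05. All symbols lie left of 0, and Slc25a21, Slc25a16, Slc25a46 and Slc25a5 have mostly open circles.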

How the data were processed

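Liver RNA of 3 CREBH-KO and 3 WT samples was sequenced as paired-end reads, and the authors deposited 1 table of read counts per library, made with HTSeq per the labels' titles. The sources used here do not give the aligner, the build or the strand handling. All 55536 identifiers matched GENCODE M21 (GRCm38), which supplied symbols, positions and lengths. HTSeq's lines for reads in no gene (27.4% to 31.2% of the listed reads per library, 13.7% to 15.0% aligned to several places) were left out.

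Counts were filtered with filterByExpr (minimum count 10, minimum total 15), which kept 15589 genes and 99.9% of counts. Scaling used TMM factors, which were 0.967 to 0.985 in WT and 1.001 to 1.053 in CREBH-KO. These factors did not overlap between genotypes, so they lowered CREBH-KO values relative to WT when set against library size alone. CREBH-KO and WT were compared with edgeR's quasi-likelihood test (edgeR 4.0.16, R 4.3.3). The test was two-sided, with no covariate and Benjamini-Hochberg adjustment over all tested genes. SE is the absolute log2 fold change over the square root of F. Alternatives used limma 3.58.1, DESeq2 1.42.0, other factors and filters, and left-out libraries. Scripts were tested on simulated data. Replicate numbers follow accession order and pair no samples. The members, substrate groups and gene lists were chosen with earlier results of these data known. The members are named, apart from a few items that are not reported here. Values by library are given for called members and for the most abundant member of each substrate group, and others were added after their values were seen.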

Additional observations from a re-analysis of the deposited data

How the results depend on the processing

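The 10 carriers that fell kept their direction under all 15 alternatives. The number of called carriers ranged from 7 to 14 over other scalings, filters and tools. It ranged from 3 to 9 with 1 library left out, and was 0 with CREBH-KO 1 alone against WT, where the lone library is assumed to vary like the others. The number of called genes was 2456 with no filter, 658 to 1806 with 1 library left out and 228 with CREBH-KO 1 alone. The summed carrier level of CREBH-KO, as a percentage of WT, was 90.9 with library size alone, 88.4 with upper-quartile factors, 89.7 with no length correction, 82.8 with CREBH-KO 1 alone and 84.2 to 87.3 with 1 library left out. With the longest coding transcript as length, an alternative chosen after seeing the data like the left-out libraries of this sum, it was 87.8. No called carrier reversed. Carriers that did not pass crossed 0 as follows. With library size alone Slc25a17 was at 0.043, Slc25a20 at 0.025 and Slc25a3 at 0.046, and with upper-quartile factors Slc25a17 was at 0.0049 and Slc25a3 at 0.0067. With no filter Slc25a22 was at -0.012. With CREBH-KO 1 alone Slc25a22 was at -0.070, Slc25a39 at -0.027, Slc25a42 at -0.15, Slc25a51 at -0.12 and Ucp2 at -0.098. With 1 library left out the ranges were -0.11 to 0.012 for Slc25a17, -0.019 to 0.045 for Slc25a22, -0.034 to 0.54 for Slc25a36, -0.021 to 0.056 for Slc25a39, -0.068 to 0.29 for Slc25a4, -0.0093 to 0.28 for Slc25a53 and -0.14 to 0.30 for Ucp2. The causes were not tested. No paired analysis was possible because the labels give no replicate numbers. Groups of 3 limit precision, and carriers under about 1 CPM had SE values of up to 0.50 on the log2 scale.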
